A study of Drosophila melanogaster with 2 samples.

Results

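Binding of the transcription factor Adf1 was described at 8 genes of epidermal growth factor receptor (EGFR) signalling in Drosophila melanogaster: the receptor gene Egfr, the ligand genes spi and vn, the protease gene rho, the inhibitor genes aos and sty, and the Ets factor genes pnt and aop. The genes were chosen by name, as 8 of the 13968 protein-coding genes annotated on the 7 chromosome arms, and each was taken with 10 kb to either side. The study holds 1 group of 2 biological replicates and no other group. Adf1 (Adh transcription factor 1) binds DNA through a MADF domain. Whole embryos of the Adf1-GFP strain, aged 0 to 24 h, carried Adf1 fused to enhanced green fluorescent protein (eGFP), and chromatin was precipitated with an anti-GFP antibody and sequenced (ChIP-seq). Every library therefore carried the tagged protein, and whole embryos of a long age window mix tissues and stages, so no cell type or stage could be told apart. The values are peak lists with no read counts, so the depth of each replicate is unknown, and with no second group nothing here is a test between conditions.

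The EGFR is a receptor tyrosine kinase that signals through Ras and a cascade of kinases ending in the MAP kinase Rolled. Its ligand Spitz (spi) is made as a membrane-bound precursor that Rhomboid (rho), an intramembrane protease, cleaves into its active form, while Vein (vn), a neuregulin-like ligand, is secreted. At the end of the cascade the activator Pointed (pnt) and the repressor Anterior open, also called Yan (aop), are Ets factors that compete for the same kind of DNA site. Argos (aos), which binds and sequesters Spitz, and Sprouty (sty), which acts inside the cell on Ras signalling, are feedback inhibitors. In the embryo the pathway patterns the ventral ectoderm, among many other tissues.

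A summit is the position of highest signal in a peak. The main list is the one the authors called conservative, made across the replicates by the irreproducible discovery rate (IDR), which measures how well peak ranks repeat. It is named the replicate-supported list and holds 4370 summits. A longer optimal list holds 5607 summits, replicate 1's own list 3126 and replicate 2's own list 6003. Each list also has a longer ranked form that reaches below the threshold. Peak signal is the authors' value for each peak. Its scale is not stated, so signals are compared within 1 list only. A gene is called bound where a summit lies within 500 bp of any of its own transcription start sites (TSSs).

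The sequences under 6 of the summits described below are printed here on the strand of the gene, because they hold the triplet runs discussed later or, for aos, none of them. Capitals mark GCNGCNGC, a run of GCN triplets like those of known Adf1 sites, and GNCGNCGNC, a related triplet run that was chosen after these windows had been read. Each motif is its own reverse complement, so a match counts for both strands, and the matches may overlap. Sequence and positions are those of RefSeq's Release 6 genome (dm6), and bases of an annotated untranslated region (UTR) were left out.
aop inner start, chr2L:2161611-2161711, minus strand: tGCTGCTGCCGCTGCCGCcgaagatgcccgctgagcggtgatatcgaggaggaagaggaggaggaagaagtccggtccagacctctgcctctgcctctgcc
pnt first start, chr3R:23346168-23346257, minus strand: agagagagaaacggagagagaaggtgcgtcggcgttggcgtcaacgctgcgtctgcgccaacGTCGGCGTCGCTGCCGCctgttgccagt
pnt intron, chr3R:23334586-23334686, minus strand: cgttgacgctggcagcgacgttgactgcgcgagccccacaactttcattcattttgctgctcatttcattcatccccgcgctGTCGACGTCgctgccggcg
pnt upstream of the middle start, chr3R:23315375-23315475, minus strand: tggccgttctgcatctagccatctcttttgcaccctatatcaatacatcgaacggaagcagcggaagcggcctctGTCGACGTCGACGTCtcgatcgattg
sty intron, chr3L:3411135-3411235, minus strand: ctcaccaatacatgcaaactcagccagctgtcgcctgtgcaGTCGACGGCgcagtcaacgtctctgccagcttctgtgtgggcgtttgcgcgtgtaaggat
aos start, chr3L:16483665-16483765, minus strand: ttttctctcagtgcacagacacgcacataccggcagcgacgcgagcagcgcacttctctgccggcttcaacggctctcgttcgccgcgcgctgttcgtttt

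The 8 regions held 34 replicate-supported summits, and they were spread unevenly. The regions of pnt and sty had 9 each, aop had 6, vn had 4, aos had 3, Egfr had 2, spi had 1 and rho had none. Their signals ran from 24.7 to 1873 with a median of 166, against a median of 151 over the whole list. By the TSS rule 5 of the 8 genes were bound, namely Egfr, aop, pnt, vn and aos, against 18.9% of all protein-coding genes in the same list. The optimal list added spi, with 6 bound against 23.2% of all genes, as did replicate 2's own list, also with 6 against 23.2%. In replicate 1's own list 5 were bound against 14.3% of all genes, with spi in and vn out. With the gene and 10 kb to either side, 7 of the 8 (all but rho) held a summit, against 56.9% of all genes. The same 7 did so in the optimal list (64.0% of all genes), in replicate 1's own list (47.8%) and in replicate 2's own list (63.4%). These 8 genes are long: their median length was 23027 bp, against 2165 bp over all genes. Among the 1020 genes of 20 kb or more, 42.7% were bound, and of the 5 members of that length (Egfr, aop, pnt, vn and sty) 4 were. A summit in the gene or within 10 kb was held by all 5 of these members and by 71.4% of the long genes. As the genes were chosen with results of these data known, the counts are a description and were not tested.

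**Figure D1:**
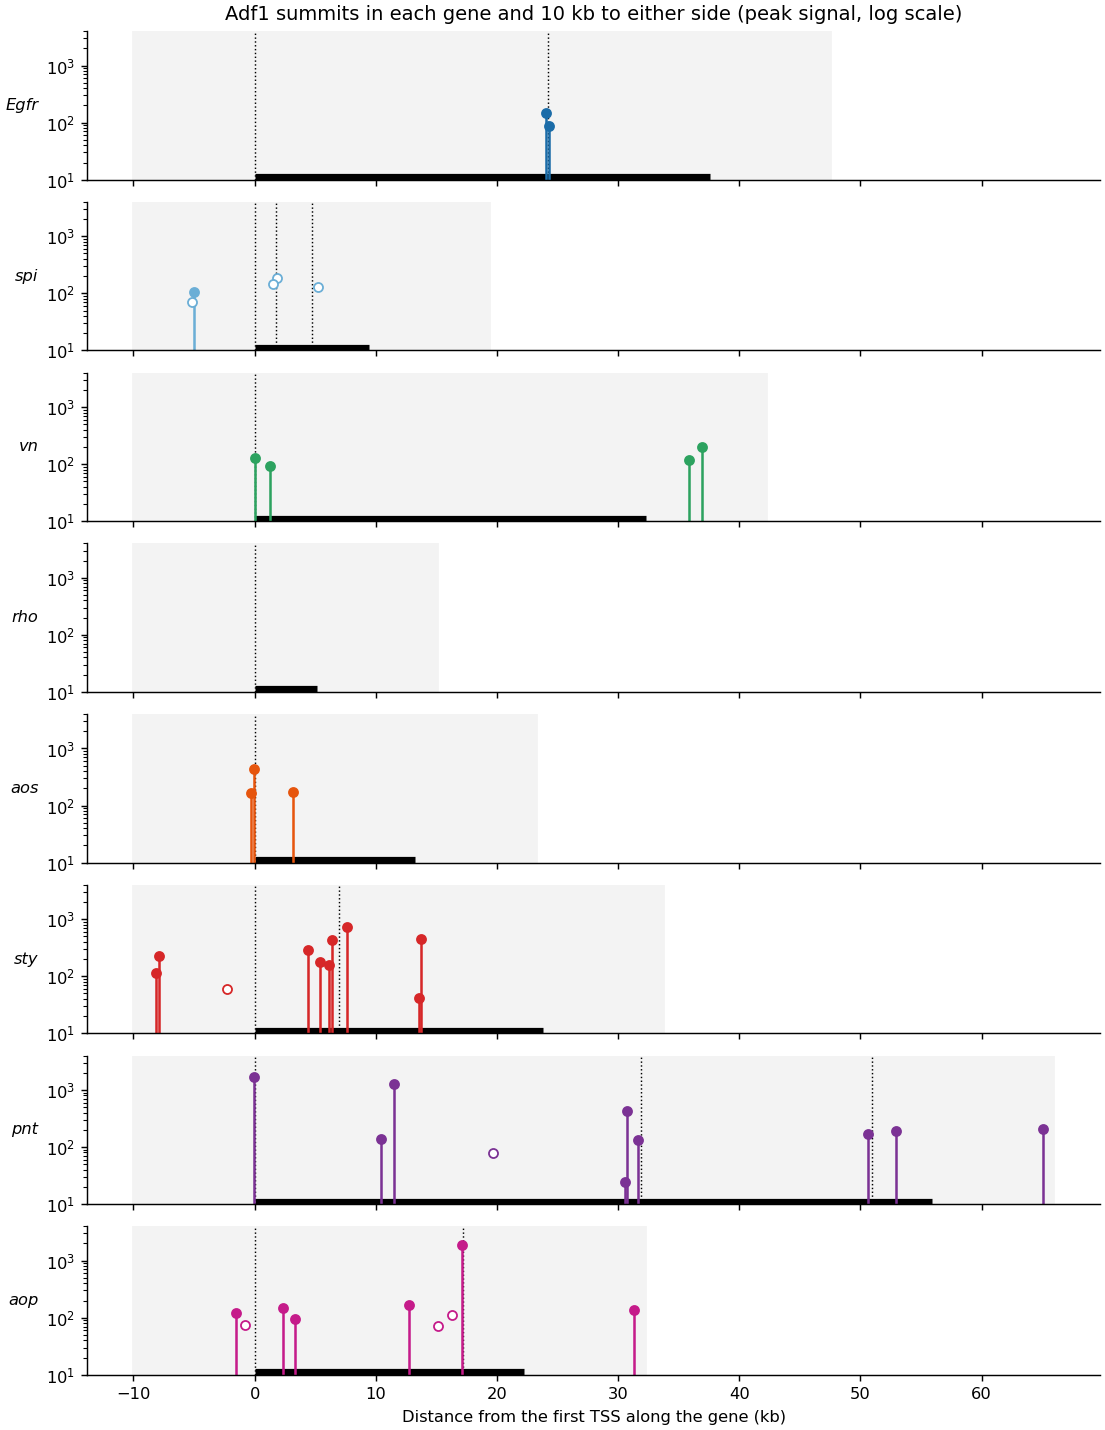
Summits along each gene. The x axis gives the distance in kb from the first TSS, in the direction of transcription, and the y axis the authors' peak signal on a log scale. Filled points with stems are replicate-supported summits, open points are summits found in the optimal list but not in the replicate-supported list, black bars are genes, dotted lines are TSSs, and grey bands are the regions searched. Summits are frequent across sty, pnt and aop, sit at the inner start of Egfr and are absent from the region of rho.

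The number of summits in the regions of pnt and sty, 9 each, was reached or passed by 66 of all genes (0.473%) and by 44 of the 1020 genes of 20 kb or more (4.31%). The 6 summits of aop were reached by 1.90% of all genes. The 4 of vn were reached by 7.23%, the 3 of aos by 15.5% and the 2 of Egfr by 30.9%. Per length, the region of sty was the densest of the 8, with 2.06 summits per 10 kb, followed by aop with 1.42 and pnt with 1.19. Summits of a close pair (described below) were counted separately here and in the counts of all genes. The region of sty had 3 such pairs and that of aop none, so the order of these regions depends on how pairs are counted. The counts of sty and pnt include summits of such pairs. All 8 regions together held 0.945 per 10 kb, against 0.318 over the 7 arms. The genomic value includes long stretches without genes, so the values are set side by side as a description.

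**Figure D2:**
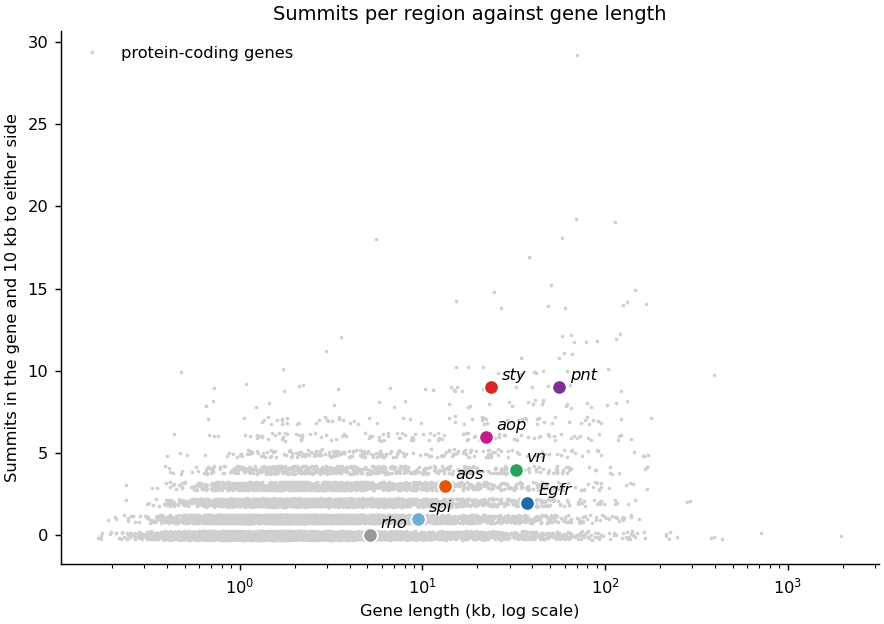
Number of replicate-supported summits in each gene and 10 kb to either side (y axis) against gene length in kb on a log scale (x axis). Coloured points are the 8 genes, and grey points, spread slightly up and down so that they can be seen apart, are all protein-coding genes. The regions of sty and pnt, have 9 summits each, a number reached by 4.31% of the genes of 20 kb or more, while rho has none.

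Egfr (FBgn0003731, 2R from 21522420 to 21559977, plus strand) encodes the receptor. It has 2 TSSs, and its summits were found at the inner one, which gives transcript Egfr-RB and lies 24223 bp inside the gene. The first summit, at 21546486, was 157 bp upstream of that TSS with a signal of 146. The other, at 21546687, was 44 bp downstream in the 5' UTR and had 86.4. Both were listed by replicate 1 alone too, at 44.4 and 33.9, among the weaker of its peaks (ranks 2758 and 2980 of 3126). In replicate 2's own list the upstream summit had a signal of 108 (rank 1971 of 6003), and the downstream one was present in the ranked list alone, with 49.2. At the outer TSS, that of Egfr-RA, replicate 2's own list held a summit 0 bp from the TSS with a signal of 51.4 (rank 4838). Replicate 1 held none within 500 bp even in its ranked list, and the nearest replicate-supported summit was 15287 bp away. A summit past the threshold at the outer start was thus listed by 1 of the 2 replicates.

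Of the ligand and protease genes, vn had 4 summits in its region, spi had 1 and rho had none, and a replicate-supported summit lay within 500 bp of a start at vn alone. At vn (FBgn0003984, 3L from 5813338 to 5845664, minus strand) a summit lay 9 bp downstream of the gene's one TSS, at 5845655, with a signal of 128 (rank 2664). Another, at 5844376, was 1288 bp downstream in the 5' UTR and had 93.4. Replicate 2's own list held the start summit with a signal of 92.4, and replicate 1 showed one there in its ranked list alone, 45 bp from the TSS, with a signal of 35.7. The other summits of the region, with signals of 200 at 5808769 and 116 at 5809807, lay in an intron of the neighbouring kinase gene S6k, 35857 bp or more from the start of vn. Each replicate listed both of these, with signals of 96.9 and 42.2 in replicate 1 and 105 and 75.8 in replicate 2, whereas neither summit within vn was in both own lists.

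At spi (FBgn0005672, 2L from 19567900 to 19577315, minus strand), which has 3 TSSs, the replicate-supported list held no summit within the gene. Its one summit in the region, at 19582294 with a signal of 104, lay 180 bp downstream of the start of Hakai, a ubiquitin ligase gene, and 4979 bp upstream of spi. Replicate 1's own list held it (56.9), and replicate 2 had none within 100 bp of it, even in its ranked list. The optimal list in contrast placed 3 summits within spi. These were 125 bp downstream of the TSS of spi-RG (signal 183), 210 bp upstream of it (148) and 566 bp downstream of the TSS of spi-RB and spi-RE (132). Each replicate called the gene on its own, but its strongest summit differed in position. Replicate 1 had it 212 bp upstream of the spi-RG start (98.0), and replicate 2 had it 185 bp downstream (140), 397 bp apart. Within 100 bp of replicate 2's strongest summit, replicate 1 did hold a weaker peak, in its ranked list alone, with a signal of 28.9. In the ranked list of the replicate-supported calls the 3 summits that the optimal list placed within spi had IDR scores of 787, 452 and 739. The lowest score kept was 830. The gene spi was therefore bound in the optimal list and in each replicate's own list, but not in the replicate-supported list.

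The region of rho (FBgn0004635, 3L from 1463811 to 1468944, plus strand) held no summit in any of the 4 thresholded lists. The nearest replicate-supported summit lay 73184 bp from its TSS, and the nearest in the optimal list 24940 bp away. Weak peaks did lie at the rho start below the threshold. In replicate 1's ranked list the strongest was 12 bp downstream of the TSS with a signal of 24.0 (rank 7416 of 27254). In replicate 2's ranked list it was 78 bp downstream with a signal of 29.3 (rank 11315 of 61519). In the ranked form of the replicate-supported list the same position had a signal of 55.5 and an IDR score of 511. Weak binding and background cannot be told apart in peak lists.

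The inhibitor genes aos and sty differed in where their summits lay. At aos (FBgn0004569, 3L from 16470386 to 16483650, minus strand) the strongest summit, at 16483715, was 65 bp upstream of the one TSS, with a signal of 440 (rank 642 of 4370). Its position repeated closely: the summit was 65 bp upstream in replicate 1 (signal 156, rank 646 of 3126) and 67 bp upstream in replicate 2 (signal 284, rank 653 of 6003). A further summit 264 bp upstream had a signal of 167, and one 3136 bp downstream, in an intron of aos, had 172. The gene lies within the longer gene CG33158, which runs on the opposite strand, so all 3 summits are also in an intron of CG33158.

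At sty (FBgn0014388, 3L from 3401153 to 3424935, minus strand) none of the 9 summits lay within 500 bp of either TSS. The nearest flanked the inner TSS, that of sty-RB. The strongest of the region, at 3417284, was 677 bp downstream in the 5' UTR and had 716 (rank 331). It was in both replicates' own lists, with 312 in replicate 1 (rank 234 of 3126) and 408 in replicate 2 (rank 402 of 6003). The next, at 3418573, was 612 bp upstream with a signal of 432 (128 in replicate 1 and 281 in replicate 2), and 3 more lay 814, 1550 and 2537 bp upstream with signals of 157, 175 and 285. Of these 3, the farthest was the strongest, and it was in replicate 2's own list (229) but not in replicate 1's. An intronic summit 6776 bp downstream had a signal of 445 (139 in replicate 1 and 305 in replicate 2), and its neighbour 6575 bp downstream had 40.8. The last pair, 7920 and 8120 bp upstream of the outer TSS, lay in an intron of the translation factor gene eIF5B, with signals of 226 and 112. Around the sty-RB start itself neither replicate held a summit within 500 bp even in the ranked lists. The gene was thus not bound by the 500 bp rule and would be by a distance of 1000 bp.

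The strongest peaks of the 8 regions were at the Ets factor genes. At pnt (FBgn0003118, 3R from 23290231 to 23346167, minus strand), which has 3 TSSs, each start had a replicate-supported summit. That of the first, pnt-RB, was 40 bp upstream at 23346207 with a signal of 1686 (rank 76 of 4370). The middle one, pnt-RD, had a summit 179 bp upstream with a signal of 135. At the innermost, that of pnt-RC and pnt-RE, a summit 286 bp upstream had a signal of 171. The starts of pnt-RD and of pnt-RC and pnt-RE were in replicate 2's own list (92.4 and 119) and, for replicate 1, in the ranked list alone (40.96 and 47.3). Only the start of pnt-RB was in both replicates' own lists, with signals of 455 in replicate 1 and 1237 in replicate 2.

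Within pnt, the second strongest summit was far from any start, at 23334636, 11531 bp downstream of the pnt-RB TSS in an intron. It had a signal of 1286 (rank 121) and stood in both replicates' own lists, with 305 (rank 240 of 3126) and 976 (rank 91 of 6003). A weaker intronic summit 10406 bp downstream of that TSS had a signal of 137. Upstream of the pnt-RD start, a summit at 1110 bp had a signal of 424 (123 in replicate 1 and 299 in replicate 2), and its neighbour at 1309 bp had 24.7. One in an intron 1980 bp downstream of the innermost start had 191. The last, with 210, lay at the end of the region, 92 bp upstream of the cell cycle gene Cdc16 and 14129 bp from the nearest pnt TSS.

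At aop (FBgn0000097, 2L from 2156484 to 2178754, minus strand) the peak of highest signal among all 8 regions was at the inner of 2 TSSs. The summit, at 2161661, lay 134 bp upstream of the start of aop-RA and aop-RD, in an intron of the longer transcripts, with a signal of 1873 (rank 54 of 4370). Replicate 1 had it with a signal of 755 (rank 38 of 3126) and replicate 2 with 1128 (rank 70 of 6003). The outer TSS, that of aop-RB, aop-RC and aop-RE, had no replicate-supported summit within 500 bp, and the nearest, with a signal of 121, was 1557 bp upstream. Replicate 2's own list did hold a summit 38 bp from the outer start, with a signal of 56.0 (rank 4472 of 6003). Within 500 bp of that start, the best of replicate 1's ranked list had 14.3 (rank 17961 of 27254). A peak of 31.8 in the same ranked list (rank 4953) lay 560 bp downstream of the start. Between the starts, intronic summits 4492 bp upstream of the inner TSS (166) and 2352 and 3311 bp downstream of the outer one (148 and 95.1) were weaker. The sixth summit of the region, with 136, lay 51 bp upstream of Tbcd, a tubulin cofactor gene.

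Ranked within each list, the strongest summits of aop and pnt stood near the top everywhere. The value is the highest of each region, and the regions differ in length and in number of summits. The median signal of the replicate-supported summits was 142 in the aop region and 191 in that of pnt, against 151 over the whole list. For aop, the strongest summit was at percentile 98.8 of the replicate-supported list, 98.8 of replicate 1's own list and 98.8 of replicate 2's. The strongest of pnt was at 98.3, 96.1 and 99.1 in the same lists. That of sty was at 92.4, 92.5 and 93.3, and that of aos at 85.3, 79.3 and 89.1. The strongest of the vn region, in S6k, was at 63.6, 62.9 and 65.7. Egfr was at 48.1 in the replicate-supported list, 11.8 in replicate 1's own list and 67.2 in replicate 2's. These lists differ in length, with 3126 summits for replicate 1 and 6003 for replicate 2, so a percentile depends on where each list ends and its difference between lists is not a change at the gene. In the longer ranked lists the same Egfr summit was at 88.2 in replicate 1 and 96.6 in replicate 2, and the strongest of rho was at 72.8 and 81.6. The order aop, pnt, sty and aos was the same in the replicate-supported list and in replicate 1's own list, while in replicate 2's own list pnt was above aop. With 2 replicates, no spread can be put on these percentiles beyond the 2 values.

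**Figure D3:**
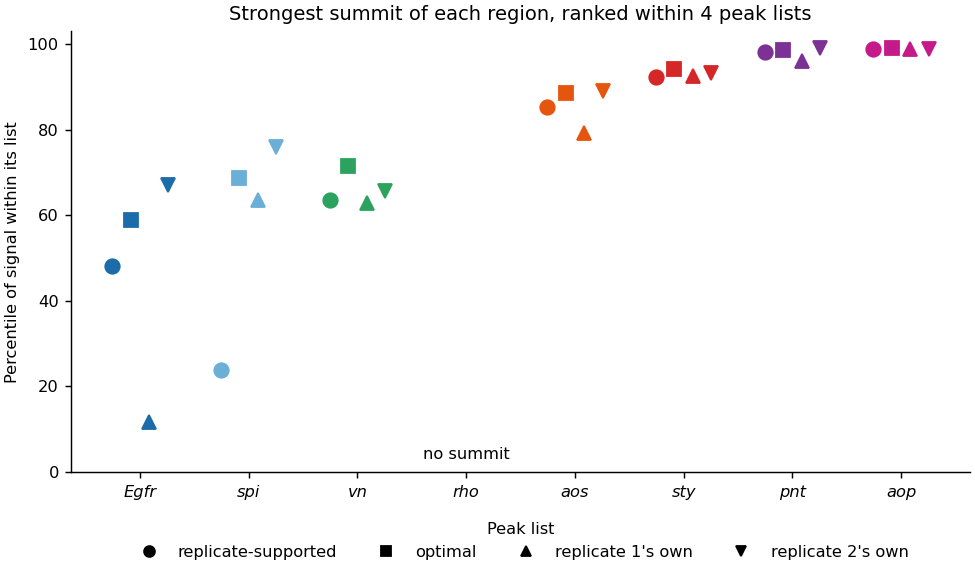
Percentile of the signal of the strongest summit of each region (y axis, 0 to 100) within 4 peak lists, 1 column per gene and 1 marker shape per list. Markers of aop, pnt and sty all lie at 92.4 or above, those of Egfr lie between 11.8 and 67.2 in lists of unequal length, and rho has no summit in these lists.

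Of the 34 summits, 23 (67.6%) had a summit of replicate 1's own list within 100 bp and 30 (88.2%) one of replicate 2's, against 61.8% and 87.6% of all 4370 summits. In both own lists were 21 of the 34 (61.8%), against 57.6% of all. Support from the replicates was thus close to that of the whole list. In neither own list were 2 summits, that 1288 bp downstream of the vn start and the weak neighbour 1309 bp upstream of the pnt-RD start. The pnt one had no partner within 100 bp in either replicate's ranked list, and it shares the peak interval of its neighbour of 424. In the ranked lists 31 of the 34 had a partner within 100 bp in each replicate. Signals at these 31 are not on a shared scale between replicates.

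**Figure D4:**
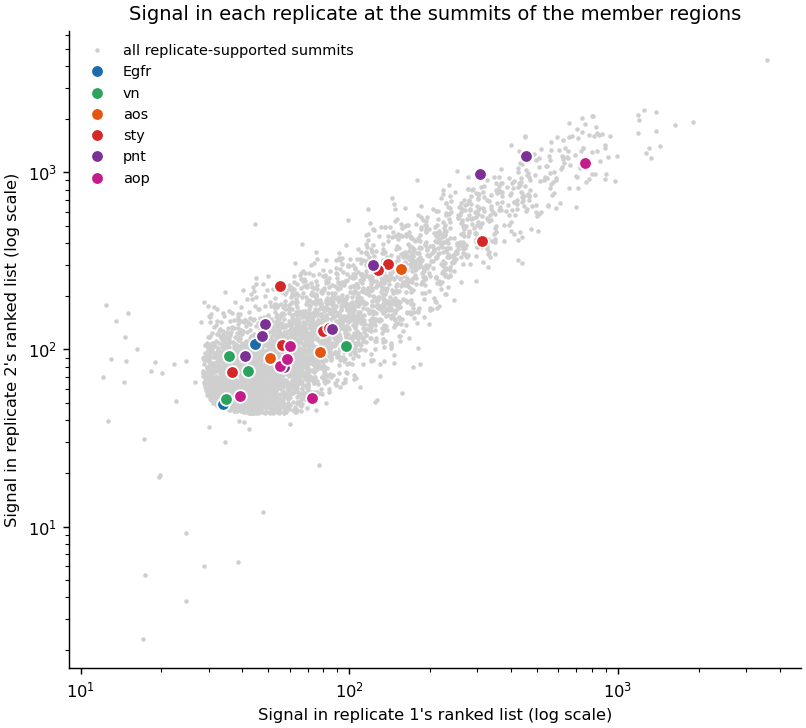
Signal at each replicate-supported summit in replicate 1's ranked list (x axis) and replicate 2's ranked list (y axis), both on log scales and each on its own list's scale, for summits matched within 100 bp. Coloured points are 31 of the 34 summits of the 8 regions, and grey points are all matched summits. The summits of aop and pnt with the highest signal lie at the upper right, with 755 and 1128 for aop.

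Counted by start site, 7 of the 15 TSSs of the 8 genes had a replicate-supported summit within 500 bp, against 17.9% of the 19630 TSSs of all protein-coding genes. The optimal list covered 8 (22.4% of all). Replicate 2's own list covered 11 of the 15 (22.7% of all) and replicate 1's 5 of the 15 (13.2% of all). The TSSs without one in any of the 4 thresholded lists were those of rho, of spi-RA and spi-RF, and of sty, each of its 2. In the replicate-supported list the covered start of Egfr and aop was the inner one, and in pnt every start was covered. Fewer of the 34 summits lay at a start than in the whole list: 12 (35.3%) were within 500 bp of a TSS of any protein-coding gene, against 58.2% of all summits. Within the genes themselves lay 23 of the 34, and 25 of the 34 (73.5%) lay in introns of these genes, of CG33158 or of the neighbours S6k and eIF5B. The nearest TSS belonged to 1 of the 8 genes for 29 summits and to a neighbour (Tbcd, Cdc16, Hakai or S6k) for 5.

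Several summits came as close pairs. At Egfr, pnt and aos 1 pair each and at sty 3 pairs of neighbouring summits were 199 to 202 bp apart. Over the whole replicate-supported list 441 neighbouring pairs were within 250 bp, with a smallest distance of 199 bp and a median of 203 bp, so no summits closer than that were listed. The signals within a pair could differ widely, for example 424 against 24.7 at pnt and 445 against 40.8 at the sty intron. Summits of a pair lie in the same or overlapping intervals and may not be separate sites, and counting each pair once left 28 of the 34.

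Triplet runs were present at summits of high and of lower signal. In windows reaching 50 bp to either side of the summit, GCNGCNGC was found at 6 of the 34 (17.6%), against 16.0% of all 4370 summit windows and 4.78% of windows of equal width 500 bp to each side of all summits. In the side windows of the 34 summits themselves it was in 4 of 68 (5.88%). The share was near that of the whole list. It was found at the inner start of aop, in a run with 4 overlapping matches printed above, and at the first start of pnt. The other 4 summits with it had lower signals. These were 200 in the S6k intron (5 matches), 157 at sty, 148 in an aop intron and 93.4 in the vn 5' UTR. The related GNCGNCGNC was at 10 of the 34 (29.4%), against 16.3% of all summits, 2.70% of all side windows and 3 of the 68 side windows of these summits (4.41%). With windows reaching 25 bp to either side it was at 3 of the 34 (8.82%), close to the 9.84% of all summits. In these windows GCNGCNGC was at 2 of the 34 (5.88%), against 9.43%. As GNCGNCGNC was picked from the summit windows, its count here is a description only. In the 437 strongest summits of the list the share of GCNGCNGC was 34.8% and that of GNCGNCGNC 43.9%, both above their shares of all summits. In pnt GNCGNCGNC was at 4 summits, namely the first start, the strong intronic summit and those 1110 and 1309 bp upstream of the middle start. In sty it was at the summits of 716 and 445 and at the outermost one in eIF5B. It was also at the S6k summit of 200, the aop summit of 148 and the summit of 104 at Hakai. Neither motif was in the aos start window, nor in the window of either Egfr summit. A match describes these letters only and shows no bound site.

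The motif GAGAG, the core of sites of GAGA factor, was at 11 of the 34 (32.4%), against 21.0% of all summits and 13.4% of all side windows. The side windows of the 34 summits held it in 15 of 68 (22.1%), also above the share of all side windows. All 3 starts of pnt had it, with 5 matches at the innermost one. GCCAT, the core of Pleiohomeotic sites, was at 4 (11.8%), against 16.1% of all summits, 16.2% of all side windows and 14 of the 68 side windows of these summits (20.6%). CAGGTA, found in sites of Zelda, TATCGATA, that of DREF, and CCGGAA, a core of Ets sites, were at 0 of the 34, against 1.92%, 1.56% and 1.97% of all summits. Both strands were searched, and none of these 5 motifs holds another. The median GC content of the windows was 50.99%, against 48.5% over all summits.

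Other genes of the pathway, taken from a list written by name, were also described. Of 33 further EGFR, Ras, MAP kinase and Ets genes 13 (39.4%) were bound, against the same 18.9% of all genes, and 23 (69.7%) had a summit in the gene or within 10 kb, against 56.9%. The 33 include long and short genes and were not matched for length, and 42.7% of the genes of 20 kb or more were bound. The highest signal was at Cbl, which encodes a ubiquitin ligase that downregulates the receptor, with 2115 at a summit 284 bp from a TSS (rank 39). Eip74EF, an ecdysone-induced Ets gene, had 1122 at 150 bp upstream. Shc, an adaptor gene, followed with 501, and cic, which encodes the repressor Capicua that MAP kinase signalling relieves, with 338 at 490 bp. At Mkp3, a MAP kinase phosphatase gene, the signal was 204, and at Raf, the kinase gene, 195. The region of Raf and that of Eip74EF held 14 summits each. A count of 9 or more was reached by 0.473% of all genes and by 4.31% of the genes of 20 kb or more. Eip74EF, cic, Mkp3 and Raf are of that length.

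Among 15 genes of other receptor tyrosine kinase pathways 5 (33.3%) were bound in the replicate-supported list, against 18.9% of all genes. A summit in the gene or within 10 kb was held by 8 (53.3%), against 56.9% of all genes. In the optimal list 9 were, against 23.2% of all genes there, and in replicate 2's own list 8, against 23.2%. The 5 were jeb, the ligand gene of the kinase Alk, with 1025 at 133 bp upstream, stumps, an adaptor gene of fibroblast growth factor (FGF) signalling, with 270, and the FGF genes ths (194), bnl (183) and pyr (120). Each had its summit upstream of a TSS, at 92 to 133 bp. All of these but pyr are 20 kb or longer, a length at which 42.7% of genes were bound.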

How the data were processed

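ChIP-seq peak lists of 2 biological replicates (1 library each) of Adf1-GFP embryos aged 0 to 24 h were used, all on dm6. Per the labels, chromatin was sonicated to a size range of 200 to 800 (no unit given). The deposited file lists name as inputs each replicate's alignments plus a control. Which aligner and peak caller made them is not given in the sources used here. The control library was not analysed here. The antibody field of the labels gives Adf1, while the sample text names an antibody against GFP.

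Peak signal was used as the authors deposited it, on an unstated scale. The score, as the authors deposited it, is an IDR score scaled from 0 to 1000 with a minimum of 830 in the thresholded lists. The -log10 of the global IDR in the deposited ranked lists was not used, and the last 8 columns of each ranked list were not used. The summit is the peak's start plus the deposited summit offset, counted from 1.

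Genes and TSSs were those of Ensembl release 115 (BDGP6.54), and sequence was read from the RefSeq copy of Release 6. The 8 genes, the other lists and motifs were chosen with earlier results of these data known. Named genes were all 8 members, in each other list the 6 bound genes of highest signal or fewer, and neighbours with the nearest TSS, and the host genes CG33158 and eIF5B were added after the summits had been seen. The symbol Gap1 had no match, so 33 of 34 genes were used. No test was made, since there is 1 group. No depth is known, so no interval is given. The assignment of summits to genes was tested on simulated data. Tools were Python 3.11.15, NumPy 2.4.6, pandas 2.3.3 and Matplotlib 3.10.9.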

Additional observations from a re-analysis of the deposited data

How the results depend on the processing

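The depth is unknown, and its part in the weaker calls was not tested. A missing summit shows only that none passed the threshold. The number of bound members was 5 in the replicate-supported list and 5 to 6 when 1 replicate was left out, that is, in the other's own list, and the genes changed: spi was bound in each replicate's own list and vn was not in replicate 1's. With the 2185 strongest summits alone 3 members (aop, pnt and aos) were bound and the regions held 19 summits in place of 34. Leaving out 1 replicate gave 26 to 49 summits. Within 1000 bp sty was bound too, which gave 6 members. In windows reaching 25 bp to either side, GCNGCNGC was at 2 summits (5.88%, against 9.43% of all summits), GAGAG at 5 (14.7% against 11.5%), GCCAT at 1 (2.94% against 7.85%), GNCGNCGNC at 3 (8.82% against 9.84%) and TTCATTCAT at 3 (8.82% against 0.252%). On these small counts neither GCNGCNGC, near the share of all summits in the main windows, nor GNCGNCGNC, above it there, was above it here. In windows reaching 100 bp GCNGCNGC was at 11 (32.4% against 23.8%) and GNCGNCGNC at 11 (32.4% against 22.7%). In the same windows GCCAT was at 11 (32.4% against 30.2%) and CAGGTA at 2 (5.88% against 3.73%). Of the genes of other receptor tyrosine kinase pathways 9 were bound in the optimal list and 5 to 8 when 1 replicate was left out. Of the 49 alternatives, 37 stayed within 1.5 times the main count. The motifs GNCGNCGNC and TTCATTCAT, the RefSeq TSSs, the merging of close summits and the other lists of the 2 gene groups were chosen after seeing the data. No paired analysis was possible because there is 1 group.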

Other observations

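A short sequence recurred at summits of pnt and sty. TTCATTCAT, or ATGAATGAA on the other strand, was in 5 of the 34 windows, against 26 of all 4370 (0.595%) and 0.400% of all side windows. It was also in 2 of the 68 side windows of these 34 summits (2.94%), above the share beside all summits. Some of these side windows overlap, so a site can be counted more than once, and the count is small. All 5 lay in pnt (the intron with 2 matches, the middle start and the neighbour 1309 bp upstream of it) and in sty (1550 and 2537 bp upstream of the inner start). The motif was noticed while reading these windows and has no test. It is shown in capitals, on the strand of the gene, for the sty pair and for the middle start of pnt.
sty 1550 bp upstream, chr3L:3419461-3419561, minus strand: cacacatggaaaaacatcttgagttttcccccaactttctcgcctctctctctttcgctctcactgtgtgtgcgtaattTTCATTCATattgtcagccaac
sty 2537 bp upstream, chr3L:3420448-3420548, minus strand: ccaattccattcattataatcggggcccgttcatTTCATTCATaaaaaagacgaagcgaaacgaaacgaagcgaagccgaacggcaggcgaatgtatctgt
pnt middle start, chr3R:23314444-23314544, minus strand: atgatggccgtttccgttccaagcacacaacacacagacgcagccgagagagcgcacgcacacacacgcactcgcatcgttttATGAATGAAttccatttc

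Some summits lay in very AT-rich windows. The window of the summit 264 bp upstream of aos had a GC content of 17.8%, that of the weaker intronic summit of pnt 19.8%, that beside Cdc16 21.8% and that 7920 bp upstream of sty 24.8%. These are the lowest values of the 34 windows, whose median was 50.99%, against a median of 48.5% over all summits. The share of all summit windows that are as AT-rich was not counted, so these values are not shown to be unusual.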
